A study of Bos taurus with 15 samples.

Results

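MHC class I molecules carry peptides from inside the cell to its surface. The genes described here encode their heavy chains (BOLA, BOLA-NC1 and JSP.1), the light chain beta-2-microglobulin (B2M), the peptide transporter (TAP1 and TAP2), the loading chaperone tapasin (TAPBP), the trimming aminopeptidases ERAP1 and ERAP2, and the class I transactivator NLRC5. They were chosen by name, before any filter on level, but with earlier results of these data known. All 10 names matched 1 gene each of the 19994 genes measured. TAP2 was listed at 0 in every library, which left 9 genes to test.

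The libraries hold poly-A RNA of epithelial cells that line the uterus of Bos taurus beef cows, taken from 4 uteri, pooled and used at passage 3. All groups were kept for 48 h in serum-supplemented synthetic oviductal fluid in wells that held transwells. In the contact group (labelled Contact+), about 15 ± 1 morulae per well, produced in vitro and 5.5 days old, lay against the cell layer, and in the no contact group (labelled Contact⎼) such morulae sat in the transwell. The control group (labelled Control bEEC) held cells and no embryos, and each group has 5 libraries. All cells came from a single pool, and p-values therefore reflect variation between its cultures, not between cows.

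In class I presentation, the proteasome cuts cytosolic proteins, TAP1 and TAP2 together pump the fragments into the endoplasmic reticulum, ERAP1 and ERAP2 trim them there, and tapasin holds an empty class I molecule at the transporter until a peptide binds. A heavy chain without B2M is unstable and largely stays inside the cell. In mammals, interferons raise many of these genes, partly through IRF1 and partly through NLRC5, which acts on class I promoters together with the RFX complex. In the ruminant uterus, interferon tau from the conceptus is the main known interferon signal of early pregnancy, and class I heavy chains in cattle fall into classical and nonclassical genes, BOLA-NC1 being of the second kind.

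Reads assigned to genes were 12938091 to 19792557 in 13 libraries, and 4195091 and 6104652 in contact libraries 97 and 108. Libraries are named by the number in their title, except that control libraries BEEC.103 and BEEC.104 keep the title's prefix BEEC. The numbers fall into the ranges 24 to 30, 83 to 90 and BEEC.103 to 110, with library 97 alone. The labels do not say what these ranges are, so values within a range are given beside the pooled ones. Among defining markers, the epithelial keratins KRT8, KRT18 and KRT19 were high in all libraries (KRT8 29337 to 40317 normalized counts), while EPCAM reached 3.36 and CLDN4 4.47 at most. The fibroblast collagen COL1A1 stood at 82259 to 116621 normalized counts, so genes of stromal cells were also heavily read in all libraries. Of the other stromal markers COL1A2 reached 119561, COL3A1 122032, VIM 20834, PDGFRA 820 and PDGFRB 555. The 6 stromal markers summed to 319266 to 348902 in control, 272410 to 342538 in no contact and 292398 to 359640 in contact. The 6 epithelial markers summed to 50353 to 67043, 49706 to 69856 and 46879 to 65019 in the same order. The leukocyte genes PTPRC and CD3E and the embryonic genes NANOG and PAG2 were at or near 0, with a highest value of 1.73, although the monocyte genes CD14 and CD68 were read in all libraries. The summed level of the 7 leukocyte markers was 220 to 570 normalized counts in control, 189 to 417 in no contact and 165 to 551 in contact, so these ranges overlapped. Of the other embryo markers POU5F1 reached 3.36, GATA3 5.97 and PTGS2, which endometrial cells also express, 610 to 1381 normalized counts. The summed embryo list was 793 to 1383 in control, 610 to 1371 with embryos in the transwell and 749.9 to 1378 in contact. It covers 5 of the 7 embryo markers chosen, since CDX2 and IFNT2 were not found under those symbols. PTGS2 made up most of this sum, which therefore cannot show whether embryo RNA was present. In bulk RNA, fewer cells of a type and less RNA per cell cannot be told apart.

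All 9 tested genes were higher in contact than in control, with limma adjusted p under 0.05, while 7.17% of the 12559 genes tested were called higher and 5.78% lower. Their median log2 fold change was 1.42, against -0.01 over all genes tested. In no contact, 7 of the 9 were higher than in control, against 1.48% of all genes called higher and 0.111% lower, and their median was 0.61. Between contact and no contact, 8 of the 9 were higher in contact, against 3.73% of all genes called higher and 1.82% lower, with a median of 0.77. No member was called lower in any of the 3 comparisons. The 2 comparisons with control share the same 5 control libraries, so they are not independent of each other. Within the ranges of library numbers, all 9 genes were above control in each range. The median differences were 1.57, 1.54 and 1.19 for contact and 0.69, 0.77 and 0.57 for no contact, in the order of the ranges above, and 1.01, 0.77 and 0.56 for contact against no contact.

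**Figure D1:**
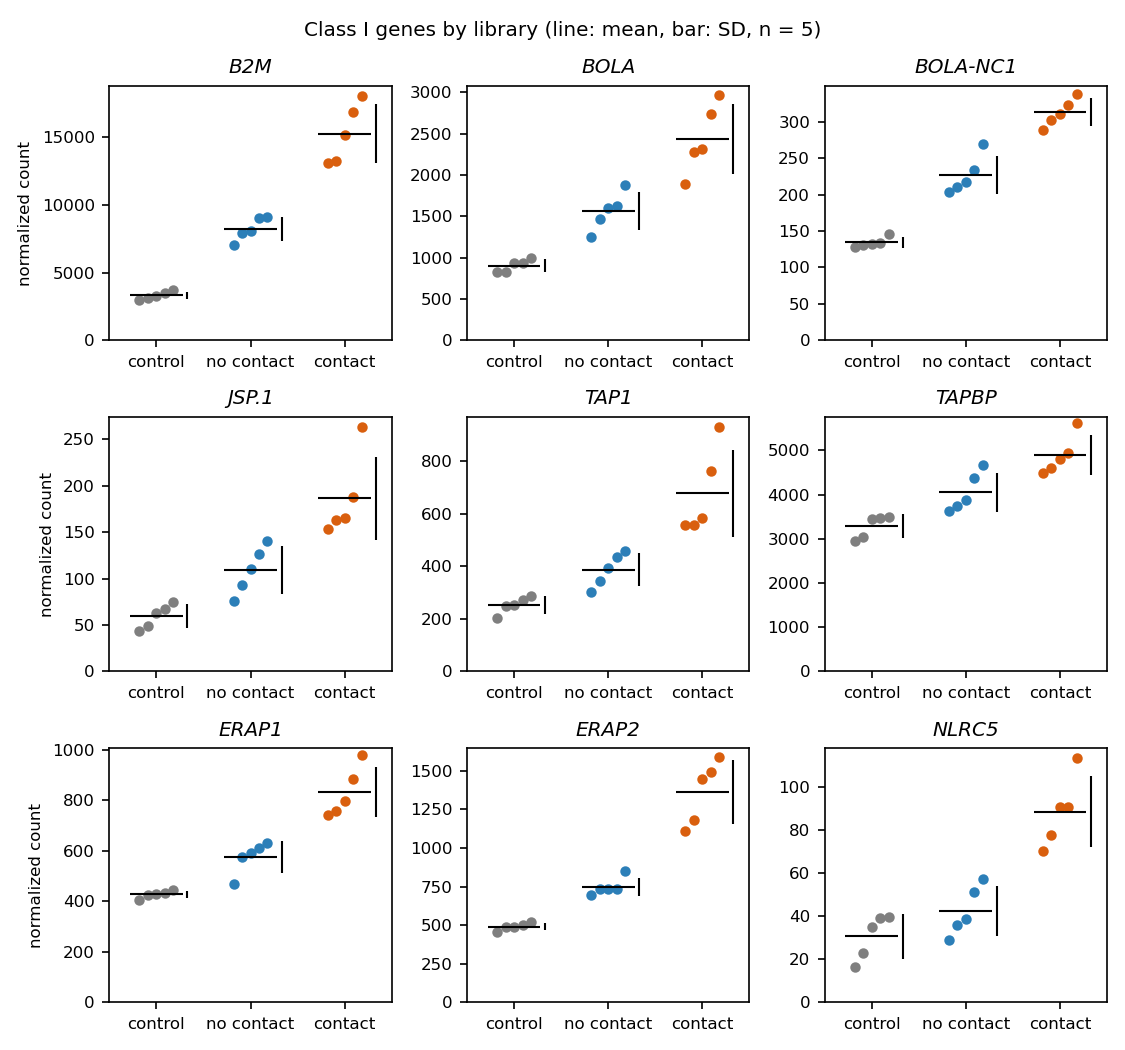
Normalized counts (y axes, linear, each from 0) of the 9 measured genes in the 5 libraries of each group, with the mean as a line and the SD as a bar. The sideways spread of points has no meaning. The contact points lie above all control points in each panel, and the no contact means lie between.

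B2M, the light chain shared by all class I molecules, gave the largest change of the 9 genes in both comparisons with control. Its normalized counts were 3731, 3011, 3139.9, 3463 and 3261 in control libraries 24, 83, 84, BEEC.103 and BEEC.104. They were 8060.4, 7029, 9126, 9035 and 7899.8 in no contact libraries 30, 89, 90, 109 and 110. They were 17998, 16813, 15106, 13095 and 13219 in contact libraries 28, 87, 97, 107 and 108. The 3 groups were fully separate, with contact libraries 107 and 108 lowest among the contact libraries and still above every no contact library. The means were 3321 ± 283, 8230 ± 870 and 15246 ± 2167 (SD, n = 5 per group). The log2 fold change was 2.19 ± 0.09 SE for contact against control (4.57-fold, limma adjusted p = 6.60e-14), 1.31 ± 0.09 for no contact against control (limma adjusted p = 1.34e-09) and 0.88 ± 0.09 for contact against no contact (limma adjusted p = 3.40e-06). The deposited description of the B2M gene carries the NCBI gene number of LOC783680, which stands next to B2M in RefSeq's gene order (assembly ARS-UCD2.0), so reads of these neighbouring genes may not be separate in this value.

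The heavy chain forms the peptide groove of the class I molecule, and 3 members are heavy chain genes. BOLA, which drew the most reads of them, had normalized counts of 998, 936, 938, 824 and 823 in control, 1627, 1602, 1876, 1468 and 1245 in no contact libraries, and 2969, 2736, 1889, 2279 and 2318 in contact, in the library order used for B2M. No group overlapped another, although contact library 97 came close to no contact library 90. The log2 fold changes were 1.42 ± 0.11 SE for contact against control (limma adjusted p = 1.08e-08), 0.78 ± 0.11 for no contact against control (limma adjusted p = 0.000127) and 0.64 ± 0.11 for contact against no contact (limma adjusted p = 0.00141).

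BOLA-NC1, a nonclassical heavy chain, was narrow in spread. It stood at 134, 132, 128, 132 and 146 normalized counts in control, 218, 269.7, 233, 203 and 211 in no contact libraries, and 338, 323, 289, 311 and 302 in contact. The groups did not overlap, and the control libraries had a mean of 134 ± 7.01. Contact exceeded control by 1.21 ± 0.09 on the log2 scale (limma adjusted p = 8.01e-10), no contact exceeded control by 0.75 ± 0.09 (limma adjusted p = 4.52e-06), and contact exceeded no contact by 0.47 ± 0.09 (limma adjusted p = 0.00204).

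JSP.1 is called an uncharacterized protein in the deposited table, and RefSeq lists it with the synonym BoLA. Its normalized counts were 66.8, 74.6, 63.3, 48.5 and 43.4 in control, 75.5, 126.3, 140.2, 110.5 and 93.0 in no contact libraries, and 154, 263, 188, 163 and 165 in contact. It drew the fewest reads of the 3 heavy chain genes and rests on 56 reads in contact library 97. The groups did not overlap, but no contact library 30 lay just above the highest control library and contact library 87 far above the other contact libraries. The log2 fold changes were 1.64 ± 0.18 SE (limma adjusted p = 1.23e-06), 0.86 ± 0.18 (limma adjusted p = 0.00941) and 0.77 ± 0.18 (limma adjusted p = 0.0136) in the same order of comparisons. The last of these did not pass without contact libraries 97 and 108 (0.81, limma adjusted p = 0.0608).

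The table holds 4 other class I heavy chain genes by their descriptions, and they differed in size of change. LOC512672, the neighbour of BOLA-NC1 in RefSeq's gene order, went from 88.8 ± 19.1 normalized counts in control to 137 ± 25.8 in no contact and 332 ± 62.2 in contact (log2 fold change for contact against control 1.90 ± 0.16 SE, limma adjusted p = 9.78e-09). BoLA, a gene under the same letters as BOLA but with an identifier of its own, rose by 0.96 ± 0.12 in contact against control (limma adjusted p = 1.41e-05). ENSBTAG00000022590, which has no symbol, rose by 0.87 ± 0.09 (limma adjusted p = 3.21e-07). LOC616942 rose by 0.59 ± 0.14 in contact against control (limma adjusted p = 0.00563) and differed between contact and no contact by 0.06, with a 95% interval of -0.22 to 0.35. LOC512672 was higher in contact than in no contact by 1.27 ± 0.16 (limma adjusted p = 2.23e-05). Class I heavy chain genes are close copies of each other, so how reads were shared out among these 7 genes is uncertain, and the size of any single heavy chain change is less sure than that of their sum.

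The summed reads of BOLA, BOLA-NC1 and JSP.1 came to 74.1 ± 4.11 CPM (counts per library scaled to the same total) in control, 128.4 ± 16.3 in no contact libraries and 204 ± 27.6 in contact (SD, n = 5 per group). The share was 69.5 to 79.0 CPM in control libraries, 107 to 152 with embryos in the transwell and 168 to 233 in contact, so no group overlapped another. The log2 differences were 1.45 for contact against control, 0.79 for no contact against control and 0.67 for contact against no contact. Each gave p = 0.00794 in a two-sided exact permutation test, the smallest that 5 against 5 libraries allow, and an adjusted p of 0.0159 over the 12 tests of shares and ratios. This share leaves out the 4 other heavy chain genes. ENSBTAG00000022590, BoLA, LOC616942 and LOC512672 averaged 932, 381, 52.6 and 88.8 normalized counts in control. In contact against control they rose by 0.87, 0.96, 0.59 and 1.90 on the log2 scale. The size of the change in a share of all 7 genes is not given here.

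Light chain reads rose more than the summed reads of BOLA, BOLA-NC1 and JSP.1, the heavy chain reads counted here. Left out are the 4 other heavy chain genes, of which ENSBTAG00000022590 alone averaged 932 normalized counts in control, against 904 for BOLA. Within a library, B2M gave 3.04 ± 0.331 reads per heavy chain read in control, 4.39 ± 0.685 in no contact libraries and 5.23 ± 0.675 in contact. Control libraries held 2.64 to 3.45, no contact libraries 3.52 to 5.10 and contact libraries 4.75 to 6.38, so both embryo groups lay above control and overlapped each other. The log2 difference was 0.78 for contact against control and 0.52 for no contact against control (exact permutation adjusted p = 0.0159 each). The difference of 0.26 between contact and no contact did not pass (exact permutation p = 0.0952, adjusted p = 0.113). It was 0.31, 0.42 and -0.10 within the 3 ranges of library numbers. With all 7 class I heavy chain genes in the sum, an alternative chosen after seeing the data, it was 0.36 and passed (exact permutation adjusted p = 0.0238). The differences from control in that alternative were 1.01 for contact and 0.65 for no contact.

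**Figure D2:**
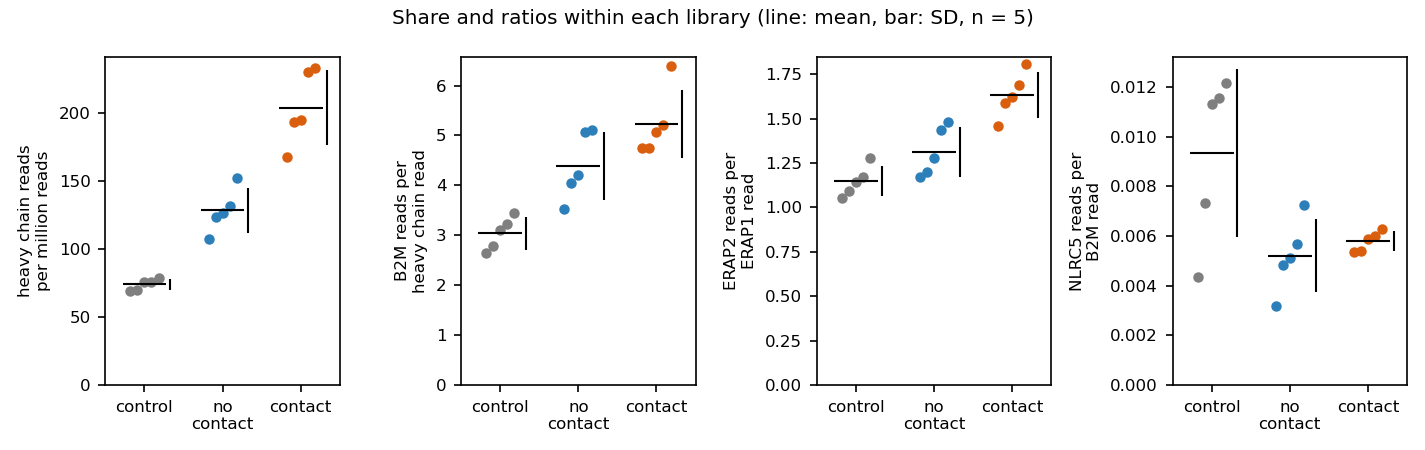
From left to right, summed heavy chain reads (BOLA, BOLA-NC1 and JSP.1) in CPM, B2M reads per heavy chain read, ERAP2 reads per ERAP1 read and NLRC5 reads per B2M read in each library, with group means as lines and SD as bars (n = 5). The heavy chain share is separate in all 3 groups, while the B2M ratio of both embryo groups lies above control.

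TAP1 and TAP2 form the peptide transporter as a pair. TAP1 stood at 289, 273, 252.3, 247 and 202 normalized counts in control, 395, 457, 437, 345 and 303 in no contact libraries, and 932, 764, 558, 559 and 583 in contact. The 3 groups were separate, and contact libraries 28 and 87 stood well above the other contact libraries, which lay close together. TAP1 was higher in contact than in control by 1.40 ± 0.14 on the log2 scale (limma adjusted p = 6.95e-07) and than in no contact by 0.79 ± 0.14 (limma adjusted p = 0.00184). The rise in no contact against control of 0.61 ± 0.14 had the highest adjusted p of the members' calls (limma adjusted p = 0.0307). It was lost without any of control libraries 84, BEEC.103 or BEEC.104 or no contact libraries 30, 89 or 90 (limma adjusted p 0.0742 to 0.106), and with no filter on low values (0.0502).

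TAP2 was listed at 0 in all 15 libraries. A total of 3511 genes were listed at 0 in every library, among them genes of general use such as GTF3C5 and DDHD2, so the 0 may be a failed count and is not read as absence of the transcript. In RefSeq's gene order TAP2 is followed by LOC618733, PSMB8, TAP1 and PSMB9, and PSMB8, TAP1 and PSMB9 were all called higher in contact than in control. On the other side of TAP2 stand BOLA-DOB and BOLA-DYB, which were too low to test. BOLA-DOB had a group mean of at most 1.52 normalized counts, and BOLA-DYB was at 0. The ratio of TAP2 to TAP1 could not be computed.

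Tapasin, which bridges the empty class I molecule to the transporter, showed the smallest change of the 9 genes. TAPBP stood at 3479, 3495, 3457, 3049 and 2948 normalized counts in control, 4365, 4664, 3884, 3734 and 3634 in no contact libraries, and 5620.3, 4947, 4802, 4494 and 4597 in contact. Every embryo library lay above every control library, while no contact library 89 reached into the contact values. Contact exceeded control by 0.57 ± 0.08 on the log2 scale (limma adjusted p = 3.61e-05). No contact against control was 0.30, with a 95% interval of 0.13 to 0.47, and did not pass (limma adjusted p = 0.0786), and contact against no contact was 0.27, with an interval of 0.10 to 0.44 (limma adjusted p = 0.0525). With the range of library numbers as a block these passed (limma adjusted p = 0.00131 and 0.00243), as they did in the authors' deposited table (FDR 0.0243 and 0.0270).

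ERAP1 and ERAP2 are neighbouring genes whose enzymes cut the N-terminal ends of peptides to the length that class I binds. ERAP1 stood at 432, 429, 446, 406 and 425 normalized counts in control, 629.9, 613, 469, 590.2 and 575 in no contact libraries, and 979, 798, 884, 743 and 757 in contact. ERAP2 stood at 455, 503, 487, 519 and 485 in control, 736, 734, 694, 849 and 734 in no contact libraries, and 1589.7, 1444, 1492, 1181 and 1106 in contact. For both genes the 3 groups were separate, with no contact library 90 the lowest of its group and contact library 28 the highest.

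ERAP1 rose by 0.95 ± 0.09 in contact against control (limma adjusted p = 3.31e-08), 0.42 ± 0.09 in no contact against control (limma adjusted p = 0.00605) and 0.53 ± 0.09 in contact against no contact (limma adjusted p = 0.000417). ERAP2 rose by 1.46 ± 0.09, 0.61 ± 0.09 and 0.85 ± 0.09 in the same order (limma adjusted p = 3.45e-11, 9.54e-05 and 2.65e-06). The ratio of ERAP2 to ERAP1 reads therefore moved, from 1.15 ± 0.0851 in control to 1.31 ± 0.140 in no contact and 1.63 ± 0.128 in contact (SD, n = 5 per group). It was 1.05 to 1.28 in control, 1.17 to 1.48 in no contact and 1.46 to 1.81 in contact, so contact and control did not overlap. The log2 difference was 0.51 for contact against control (exact permutation adjusted p = 0.0159) and 0.32 for contact against no contact (exact permutation adjusted p = 0.0272). It was 0.19 for no contact against control, which did not pass (exact permutation adjusted p = 0.0847). The difference between contact and no contact was 0.47, 0.44 and 0.17 within the ranges of library numbers, and 0.28 to 0.36 when single libraries were left out. The call was lost in 8 of those 10 fits (exact permutation adjusted p = 0.0544) and held only without no contact library 90 or contact library 108.

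NLRC5, the transactivator of class I genes, drew the fewest reads of the 9 genes. It stood at 16.3, 34.9, 23.1, 39.1 and 39.8 normalized counts in control, 39.0, 35.8, 29.1, 51.3 and 57.3 in no contact libraries, and 113, 90.8, 90.7, 70.3 and 77.8 in contact. These rest on 20 to 50 reads per control library and on 27 and 33 reads in contact libraries 97 and 108. All contact libraries lay above all others, whereas no contact and control overlapped. NLRC5 was higher in contact than in control by 1.56 ± 0.23 on the log2 scale (limma adjusted p = 6.50e-05) and than in no contact by 1.06 ± 0.23 (limma adjusted p = 0.00686). No contact against control was 0.49, with a 95% interval of 0.01 to 0.97 (limma adjusted p = 0.573). The contact difference from control was 2.73 in the range 24 to 30, 1.64 in 83 to 90 and 0.89 in BEEC.103 to 110. The 2.73 compares 1 contact library with 1 control library, library 24, which had the lowest control value and 20 reads.

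NLRC5 reads per B2M read were 0.00936 ± 0.00338 in control, 0.00521 ± 0.00147 in no contact libraries and 0.00579 ± 0.000401 in contact. The groups overlapped through control library 24, which held the lowest control ratio. The log2 differences of -0.60 for contact and -0.80 for no contact against control did not pass (exact permutation adjusted p = 0.113 and 0.0847). Both passed without control library 24 (-0.85 and -1.05, exact permutation adjusted p = 0.0212 each). For each difference, the other 9 of 10 fits without 1 library did not pass. Within the ranges of library numbers the differences from control were 0.53, -0.77 and -1.06 for contact and 0.15, -1.19 and -0.87 for no contact, so the sign was opposite in the range 24 to 30, whose only control library is 24.

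**Figure D3:**
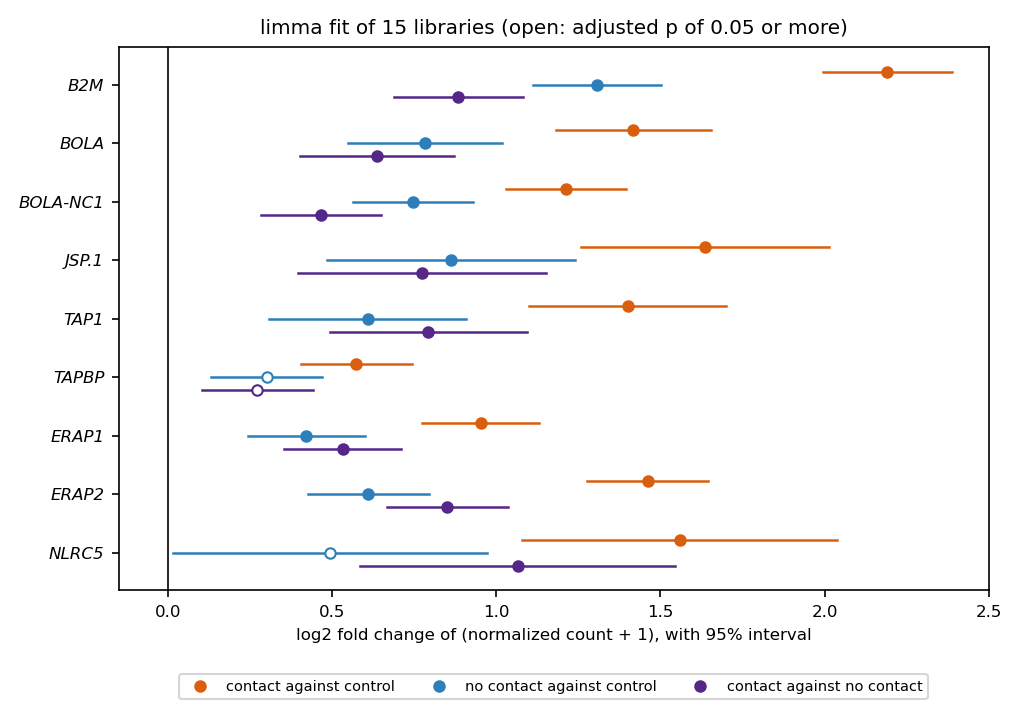
Log2 fold changes of (normalized count + 1) on the x axis, with 95% intervals from limma as lines, for the 9 measured genes and the 3 comparisons. Open circles did not pass, and these are TAPBP in 2 comparisons and NLRC5 in no contact against control.

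For all 9 genes the no contact mean lay between those of control and contact. In normalized counts it was at 51.9% of the way from control to contact for BOLA-NC1, 48.0% for TAPBP, 43.0% for BOLA, 41.2% for B2M and 39.2% for JSP.1. It was at 36.5% for ERAP1, 31.6% for TAP1, 29.7% for ERAP2 and 20.5% for NLRC5. On the log2 scale these values were 31.7% (NLRC5) to 61.6% (BOLA-NC1). Differences between genes were not tested, and their order changed between the ranges of library numbers. JSP.1 was at 14.7% in 24 to 30, the lowest of the 9, where each group has 1 library. It was at 62.1% in BEEC.103 to 110, with 2 libraries per group, where only B2M was higher. In count of groups without overlap, 9 genes were separate between contact and control, against 7.45% of all genes. The counts were 8 between no contact and control, against 1.98%, and 8 between contact and no contact, against 3.44%.

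Within groups the members moved together only in part. After group means were subtracted, Pearson's r over the 15 libraries had a median of 0.26 across the 36 pairs of members and ranged from -0.41 to 0.87, as a description over libraries that share groups and scaling. The highest pair was BOLA with TAP1 at 0.87, followed by TAP1 with TAPBP at 0.83. The lowest was BOLA with NLRC5 at -0.41. The mean z-score of the 9 genes was -1.22 to -0.96 in control, -0.18 to 0.19 in no contact and 0.83 to 1.51 in contact, with contact libraries 28 and 87 highest.

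**Figure D4:**
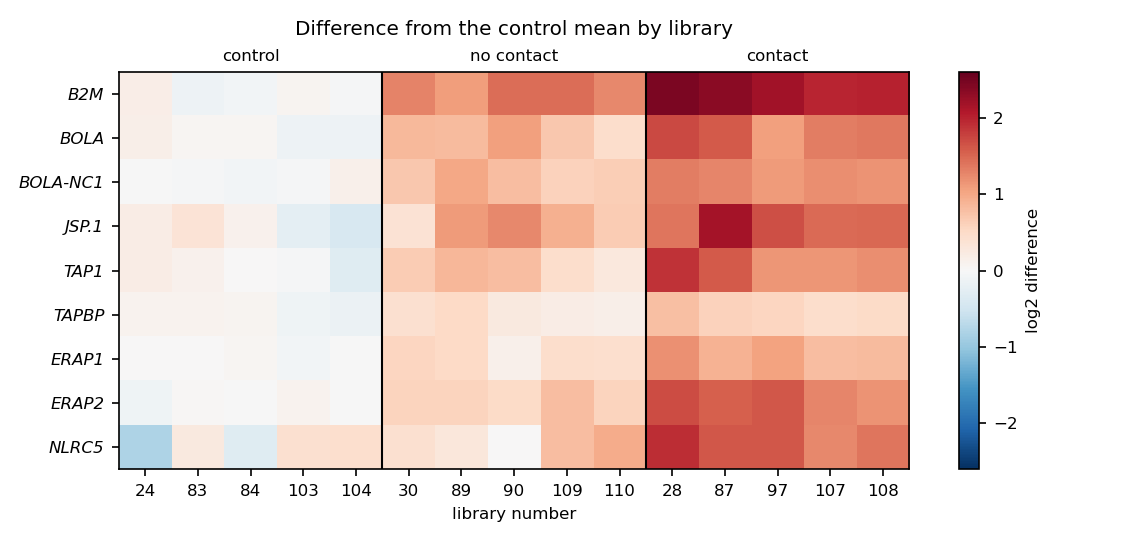
Difference of log2 values from the control mean (colour scale) for the 9 measured genes in each library (x axis, library number), by group. Contact libraries 28 and 87 are the darkest for TAP1, BOLA and B2M, and control library 24 stands out in blue for NLRC5.

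The genes most like the members over all 15 libraries were IFIT3 (Pearson's r 0.99 with the mean z-score), IFIT2, TRIM38, MX2 and FOXS1. IFIT2, IFIT3 and MX2 are interferon-stimulated antiviral genes. These values follow the group differences that all of them share. After group means were subtracted, the most like were CALCOCO2 (0.91), the proteasome activator subunit PSME1 (0.90), DDB2 (0.90), LSS (0.89) and DHCR7 (0.87), of which LSS and DHCR7 are enzymes of cholesterol synthesis.

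Of 52 other genes of class I presentation, 48 could be tested, and 13 were higher in contact than in control, against 7.17% of all genes, with a median of 0.12 over the 48 and -0.01 over all genes. In no contact against control 6 were higher, against 1.48% of all genes (median 0.03), and in contact against no contact 6 were higher, against 3.73% of all genes (median 0.11). With limma, edgeR and DESeq2, 0 of the 48 were called lower in each comparison. In the order of the comparisons, limma called 5.78%, 0.111% and 1.82% of all genes lower. At an unadjusted limma p under 0.05, 4, 2 and 1 of the 48 were lower in the same order. The share of all genes at that unadjusted threshold is not given here, so these counts are not read as a result. In contact against control, NFKB1 was called lower in 4 of 25 alternatives and TPP2 in 1.

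The proteasome genes split by type. All 3 catalytic subunits of the immunoproteasome, the form induced by interferon, and both subunits of its activator PA28 rose in contact. They make 5 of 9 proteasome genes called higher than in control, against 7.17% of all genes. PSMB8 went from 290.7 ± 17.8 normalized counts in control to 514 ± 57.0 in no contact and 789.8 ± 128 in contact, with a log2 fold change of 1.43 for contact against control (limma adjusted p = 2.57e-10). PSMB9 rose by 1.69, PSME1 by 1.23, PSME2 by 1.22 and PSMB10 by 1.01. PSMB5, PSMB6 and PSMB7, the constitutive counterparts of the catalytic subunits, stood at 0.07, 0.12 and 0.14 and did not pass. In no contact PSMB8, PSME1 and PSME2 passed (0.82, 0.82 and 0.87), while PSMB9 at 0.88 and PSMB10 at 0.51 did not. Of all genes, 1.48% were called higher in no contact than in control.

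Among 8 chaperones and loading factors 2 were called higher in contact than in control, where 7.17% of all genes were, and the counts of the groups below are read against the same share. TAPBPL, a tapasin-like peptide editor, rose by 0.68 (limma adjusted p = 9.57e-06), and BCAP31, an endoplasmic reticulum export factor, by 0.23 (limma adjusted p = 0.0317). The general chaperones CALR, CANX and PDIA3, which also serve other glycoproteins, stood at 0.02, 0.14 and 0.07 and did not pass. Of 7 other peptidases LAP3 was called higher (0.25, limma adjusted p = 0.0496). The BCAP31 call was lost in 7 of 25 alternatives, among them the fits without contact library 28 or 87 or any of control libraries 83, 84, BEEC.103 or BEEC.104, and the LAP3 call in 12 of 25, among them the fits without any of contact libraries 28, 87, 107 or 108. LNPEP, the neighbour of ERAP2 and an aminopeptidase of the same family, stood at -0.03.

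Among 13 transcription factors of the class I genes, 4 were higher in contact than in control. Of these, IRF1 rose by 1.49, RFX5 by 0.47 and IRF2 by 0.44. RFXAP and RFXANK, the partners of RFX5, stood at 0.04 and 0.17 and did not pass. Of 5 tested genes of class I turnover and restraint, 0 passed in each comparison with limma, edgeR and DESeq2. Of all genes, limma called 7.17% higher and 5.78% lower in contact against control. The shares were 1.48% and 0.111% in no contact against control, and 3.73% and 1.82% in contact against no contact. Among so few genes a count of 0 is near these shares and is not read as a result. EZH2 was called higher in contact than in control in 5 of 25 alternatives. At an unadjusted limma p under 0.05, 3 differed between contact and control, 0 between no contact and control and 2 between contact and no contact. The share of all genes at that unadjusted threshold is not given here, so these counts are not read as a result.

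Among 6 tested class I-like genes MIC1 was the only call. MIC1, described in the table as a class I related protein, went from 868 ± 42.2 normalized counts in control to 1368 ± 92.3 in no contact and 1938 ± 218 in contact. Its log2 fold change was 1.15 for contact against control (limma adjusted p = 7.85e-11), 0.65 for no contact against control (limma adjusted p = 2.11e-06) and 0.50 for contact against no contact (limma adjusted p = 0.000157).

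**Figure D5:**
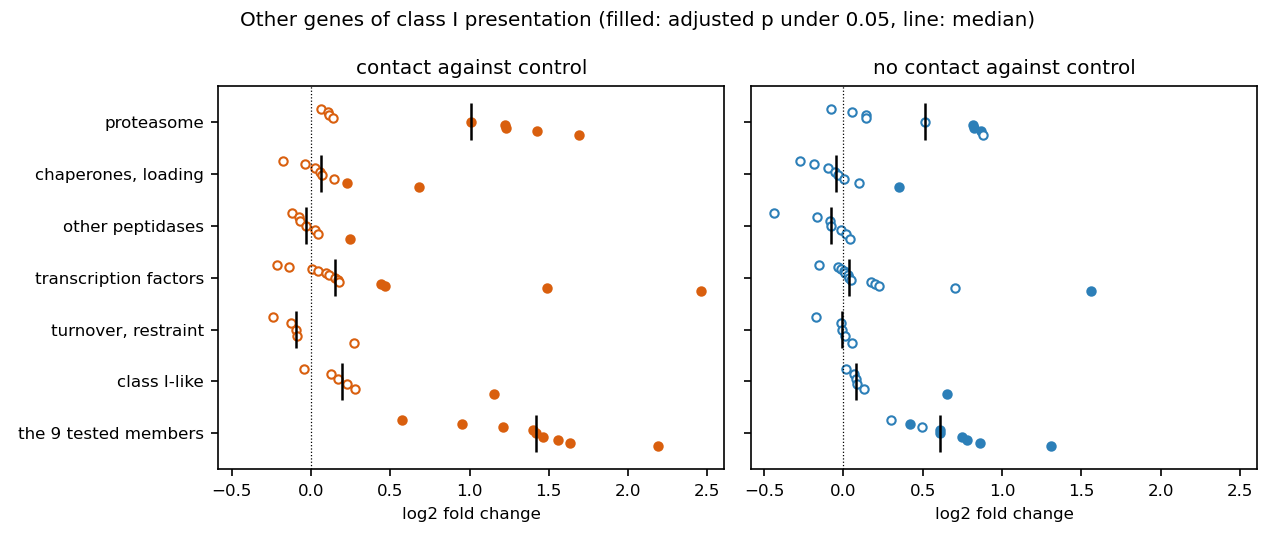
Log2 fold changes (x axes) of 48 other genes of class I presentation by role, with the 9 members in the bottom line, for contact against control on the left and no contact against control on the right. Filled points passed at adjusted p under 0.05, vertical lines are medians, and the vertical offset of points has no meaning. In contact against control, 5 of 9 proteasome genes and 4 of 13 transcription factors are filled on the left. Of all genes tested, 7.17% were called higher in that comparison.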

How the data were processed

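The deposited signal is a normalized count, that is, whole reads scaled by a factor of each library. HISAT2 2.1.0, featureCounts 1.6.2, DESeq2 1.18.1 and FastQC 0.71 are listed, without roles, per the submitters' processing notes. Build, annotation and counting strand are not stated in the sources used here, nor is the handling of reads shared by close copies. The authors' deposited log2 fold changes, Wald score, p-value and FDR were used for comparison only. All values (100%) were whole multiples of 1 read within 0.01, which gave back reads for depth, shares and ratios.

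limma 3.58.1 (R 4.3.3, trend, robust) was run on log2(normalized count + 1) over 15 libraries without a block, for 12559 genes with at least 10 normalized counts in at least 5 libraries. Adjusted p is Benjamini-Hochberg over all of them, with a threshold of 0.05. A pseudocount of 1 understates the change of low genes. Shares and ratios used exact permutation tests over libraries.

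Alternatives were edgeR 4.0.16 and DESeq2 1.42.0 on recovered reads, other pseudocounts, filters and scalings, the library number range as a block, and libraries left out. On recovered reads edgeR called 925 genes higher in contact than control, 187 in no contact than control and 475 in contact than no contact. The members and lists were chosen with earlier results of these data known. The text names all members, up to 4 called genes per role and comparison with the smallest p, and the 5 most similar genes by each measure, while PSMB10 and genes that did not pass were named after their values were seen. The limma fit was also tested on simulated data. Symbols came from the table for 16378 genes and from RefSeq for 877. The values of 1 gene of the pathway list are not reported here. Levels were not compared per length, and no sequences were used.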

Additional observations from a re-analysis of the deposited data

Results flagged for a closer look

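Among 51 sets of 5 libraries (9 members, 4 other heavy chain genes, the heavy chain share and 3 ratios in each of 3 groups), 2 held a library far from the rest, and chance gives this in about 1 in 20 sets. ERAP2 in no contact library 109 stood at 849 normalized counts, with a gap to the next library of 0.725 of the whole range of its group. The B2M to heavy chain ratio in contact library 97, the library with the fewest reads, was 6.38, with a gap of 0.723 of the range of its group. Whether depth has a part in the second value was not tested.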

How the results depend on the processing

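In contact against control all 9 members passed under every alternative run, while 6 to 8 passed in no contact against control and 7 to 9 in contact against no contact. Over all members and comparisons, 661 values kept direction and side of the threshold, 6 became called, 8 lost the call and 0 reversed. With only 3 contact libraries (without 97 and 108) no permutation test can go below p = 0.0357. The adjusted p was then 0.0612 for the heavy chain share (1.56 against control, 0.78 against no contact), the B2M ratio against control (0.73) and the ERAP2 to ERAP1 ratio (0.54 and 0.36). The smaller number of libraries sets that limit. With all 7 heavy chain genes the B2M ratio of contact against no contact was 0.36. Leaving out 1 library, the ERAP2 to ERAP1 ratio was 0.28 to 0.36 for contact against no contact, with the call lost in 8 of 10 fits, and 0.14 to 0.23 for no contact against control, and the NLRC5 to B2M ratio was -0.85 to -0.48 and -1.05 to -0.63 for contact and no contact against control. Of the pathway list, 6 were called in contact against no contact with limma, 10 with DESeq2 and 11 with the number range as a block. Of all genes, 3.73%, 4.55% and 4.55% were called higher in the same order, and the cause of the difference was not tested. LOC512672 in no contact against control was lost in 11 of 15 fits without 1 library. No paired analysis was possible because the groups share no replicate numbers, and the number range entered as a block in a limma fit instead. The permutation tests of shares and ratios had no such block. Ratios of TAP2 to TAP1 and promoter motifs were not run. Few reads limit NLRC5 and JSP.1, among other genes, and the tests cover the spread between cultures only.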
